A study of Mus musculus with 9 samples.

Results

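The genes of prostaglandin synthesis and of the PGE2 receptors EP2 and EP4 were examined in cultured mouse macrophages. The set held 10 genes, namely the phospholipase gene Pla2g4a, the cyclooxygenase genes Ptgs1 and Ptgs2, the terminal synthase genes Ptges, Ptges2, Ptges3, Hpgds and Tbxas1, and the receptor genes Ptger2 and Ptger4. They were found by matching these symbols to the Ensembl identifiers of the deposited rows, which gave 10 of 55655 rows. Bone marrow-derived macrophages (BMDMs), macrophages grown from marrow flushed out of the femur and tibia, came from wild type C57BL/6 mice aged 6 to 8 weeks and were differentiated over 7 days by the growth factor M-CSF at 10 ng/mL. M0 macrophages received nothing further, M1 macrophages received lipopolysaccharide (LPS) and interferon-γ (IFN-γ), and M1 + PBM macrophages received LPS and IFN-γ together with photobiomodulation (PBM), an irradiation with light from a semiconductor laser. Unirradiated M1 cells were also kept in the dark chamber, and RNA was collected 12 hours after PBM. Each group had 3 strand-specific RNA-seq libraries, and the values are FPKM (fragments set to the length of the transcript and the size of the library). The sources do not say whether the replicates came from separate animals, so p-values measure the spread between these samples, which may be technical. The libraries were made from bulk cultures of 1 mouse strain, in which fewer cells of a type and less RNA per cell cannot be told apart.

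Prostaglandins are made from arachidonic acid, which cytosolic phospholipase A2 (Pla2g4a) releases from membrane phospholipids. COX-1 (Ptgs1) and COX-2 (Ptgs2) convert arachidonic acid to PGH2, the shared precursor of the prostanoids. COX-1 is the constitutive enzyme of most tissues, whereas COX-2 is the inducible enzyme of inflamed tissue and of macrophages that have met LPS. Terminal synthases turn PGH2 into single products: Ptges, Ptges2 and Ptges3 encode microsomal PGE synthase-1, microsomal PGE synthase-2 and cytosolic PGE synthase, Hpgds encodes a PGD2 synthase, and Tbxas1 encodes thromboxane A synthase. PGE2 acts back on macrophages through EP2 (Ptger2) and EP4 (Ptger4), which couple to the stimulatory G protein and raise cyclic AMP (cAMP).

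The promoters of the 4 genes on which the levels described here turn are shown with the bases that matched a searched motif in capitals. They are the 250 bases before the transcription start, read 5′ to 3′ on the strand of the gene, from RefSeq on GRCm38.p6.
Ptgs2 (chr1:150099781-150100030, + strand): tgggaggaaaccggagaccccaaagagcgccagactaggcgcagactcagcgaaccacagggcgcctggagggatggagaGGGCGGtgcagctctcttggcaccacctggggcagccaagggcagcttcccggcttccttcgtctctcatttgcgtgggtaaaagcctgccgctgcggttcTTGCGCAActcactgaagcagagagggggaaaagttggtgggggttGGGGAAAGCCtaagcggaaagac
Ptges (chr2:30903298-30903547, - strand): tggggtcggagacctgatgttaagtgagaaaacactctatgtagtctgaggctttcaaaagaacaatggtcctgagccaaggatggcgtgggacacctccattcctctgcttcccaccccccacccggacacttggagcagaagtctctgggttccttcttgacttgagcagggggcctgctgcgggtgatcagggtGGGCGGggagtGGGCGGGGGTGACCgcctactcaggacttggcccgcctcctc
Ptgs1 (chr2:36230176-36230425, + strand): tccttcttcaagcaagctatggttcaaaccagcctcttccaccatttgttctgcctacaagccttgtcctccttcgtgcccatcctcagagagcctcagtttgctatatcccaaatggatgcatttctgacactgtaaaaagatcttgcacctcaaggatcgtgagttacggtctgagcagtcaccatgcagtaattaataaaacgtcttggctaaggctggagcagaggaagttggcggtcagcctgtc
Ptger4 (chr15:5244188-5244437, - strand): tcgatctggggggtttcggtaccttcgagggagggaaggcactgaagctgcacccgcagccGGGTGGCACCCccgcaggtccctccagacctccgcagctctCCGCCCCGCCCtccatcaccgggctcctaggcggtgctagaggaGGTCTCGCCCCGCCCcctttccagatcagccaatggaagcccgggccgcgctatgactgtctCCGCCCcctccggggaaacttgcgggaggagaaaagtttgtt

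In the Ptgs2 promoter the capitals mark a GC box (GGGCGG), a C/EBP motif (TTGCNNAA) and an NF-kB motif (GGG and CC with 5 bases between them), which begin at positions -170, -69 and -23 from the start. In the Ptges promoter they mark a pair of GC boxes, of which the one nearer to the start overlaps an NF-kB motif. A further stretch of 30 bases of Ptgs2 lies just after the start, at chr1:150100034-150100063 on the + strand, and holds the core of a CRE (TGACG, here on the other strand as CGTCA) that overlaps an E-box (CACGTG).
Ptgs2, bases 4 to 33 after the start: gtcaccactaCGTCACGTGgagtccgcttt

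All 10 genes had a RefSeq promoter, and both strands of the window from 250 bases before to 50 bases after the start were searched. The NF-kB motif was in 5 of the 10 windows (Ptgs1, Ptgs2, Ptges, Ptges3 and Ptger4), against 50.8% of all 32851 promoters. The GC box was in 4 (Ptgs2, Ptges, Ptges3 and Ptger4), against 35.7%, and the C/EBP motif was in 3 (Ptgs2, Hpgds and Ptger2), against 10.8%. The CRE core was in 2 (Ptgs2 and Ptges3), against 20.8%, and the E-box was in 2 (Ptgs2 and Ptges2), against 7.15%. The AP-1 motif (TGANTCA) and the TATA motif (TATAAA) were each in the window of Tbxas1, against 7.81% and 13.6% of all promoters. Pla2g4a had a further RefSeq start, left out of these counts, with a TATA match at position -200 on the other strand. The full CRE (TGACGTCA, 1.79%), the GAS motif (TTCNNNGAA, 8.30%) and the ISRE motif (GAAA and GAAA with 2 bases between them, 3.44%) were in none of the windows. These matches describe letters only, and no binding was measured in the samples.

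The summed FPKM of macrophage markers was high in every library, as labelled. Most of it came from Lyz2, at 3459 to 8773, whereas Cx3cr1, named after its values were seen, was low at 0.200 to 2.55. All 10 macrophage markers reached an FPKM of 1 in 1 library or more, and their summed FPKM was 6804 to 10356 in M0, 5535 to 8493 in M1 and 5668 to 7311 in M1 + PBM. The summed FPKM of the 10 M1 activation markers was 27.9 to 309 in M0, 2018 to 2129 in M1 and 951 to 1559 in M1 + PBM. Markers of the cell types best known for PGD2 and thromboxane were low. Of the 10 mast cell and basophil markers, Fcer1a, Mcpt4, Cma1 and Tpsb2 were listed at 0 in all libraries, and the highest was Hdc, the histamine-synthesising enzyme, at 6.89 to 11.2 in the libraries given LPS and IFN-γ. Of the 10 platelet markers Pf4 was the highest, and the list summed to 10.8 to 28.4 over the 9 libraries. Neutrophil markers summed to 1.61 to 2.51 in M0, 8.94 to 28.1 in M1 and 6.44 to 15.2 in M1 + PBM, with S100a9 and Ly6g at 0. The highest of them was S100a8, at 1.13 to 2.11 in M0, 6.90 to 27.2 in M1 and 4.94 to 14.5 in M1 + PBM. Dendritic cell markers summed to at most 2.79, lymphoid markers to at most 0.852 and erythroid markers to at most 1.12.

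A pair of libraries stood apart. M0 replicate 3 had an FPKM of 25.1 for Il1b, against 0.285 and 0.244 in M0 replicates 1 and 2, and of 123 for the collagen gene Col1a1, against 4.44 and 3.44. Stromal markers accordingly summed to 287 in it, and 922 of 15157 rows lay more than 1 log2 unit from the mean of the other M0 libraries, against 305 and 707 for replicates 1 and 2. M1 replicate 2 held liver transcripts, with an FPKM of 9.01 for Alb, which was 0 in every other library. For genes that did not overlap between M0 and M1, ratios are given with and without M0 replicate 3. The fit of Ptgs2 is given with and without M1 replicate 2. The part of the stromal and liver transcripts in the results was not tested. No fragment counts were given and the depth is not known. From the steps between low values it was estimated at 30780000 to 41930000 fragments per library, an estimate that rests on only 33.2 to 35.8% of low values falling on whole fragments, where evenly spread values would give 10%.

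In resting M0 macrophages the transcripts of COX-1 and of the PGD2 and thromboxane synthases outweighed those of COX-2 and of the inducible PGE synthase. Ptges3 had the highest mean FPKM of the 10 genes (36.1 ± 8.41), followed by Hpgds (33.3 ± 10.8), Tbxas1 (19.2 ± 4.85), Ptgs1 (10.7 ± 4.27), Ptger4 (6.45 ± 3.11) and Pla2g4a (4.93 ± 2.76; SD, n = 3 libraries each). The genes next to each other in this order overlapped. Below Pla2g4a, Ptges2 (2.31 ± 0.168), Ptges (2.15 ± 1.58), Ptger2 (2.02 ± 0.766) and Ptgs2 (1.51 ± 2.38) overlapped in turn. Pla2g4a, at 2.81 or more, lay clear of the next gene, Ptges2. It overlapped Ptges and Ptgs2, which reached 3.98 and 4.26.

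In M1 macrophages Ptges (191 ± 38.9) and Ptgs2 (173 ± 76.6) took the first places and overlapped each other, and both lay above Ptges3 (38.6 ± 1.18). Hpgds (14.5 ± 1.49), Pla2g4a (14.2 ± 1.76) and Tbxas1 (12.4 ± 1.37) followed and overlapped in turn. Ptges2 (2.43 ± 0.432), Ptger2 (2.06 ± 0.271) and Ptger4 (1.81 ± 0.374) came next, again overlapping, and Ptgs1 (0.717 ± 0.325) was the lowest. In M1 + PBM macrophages Ptges (168 ± 56.7) stood alone at the top, because Ptgs2 (42.9 ± 32.6) now overlapped Ptges3 (39.1 ± 1.86). Hpgds (16.7 ± 3.40), Tbxas1 (14.2 ± 3.05) and Pla2g4a (11.6 ± 1.22) overlapped in turn, as did Ptger4 (3.61 ± 1.63), Ptger2 (2.82 ± 1.12) and Ptges2 (2.19 ± 0.406), and Ptgs1 (0.674 ± 0.264) was again last.

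**Figure D1:**
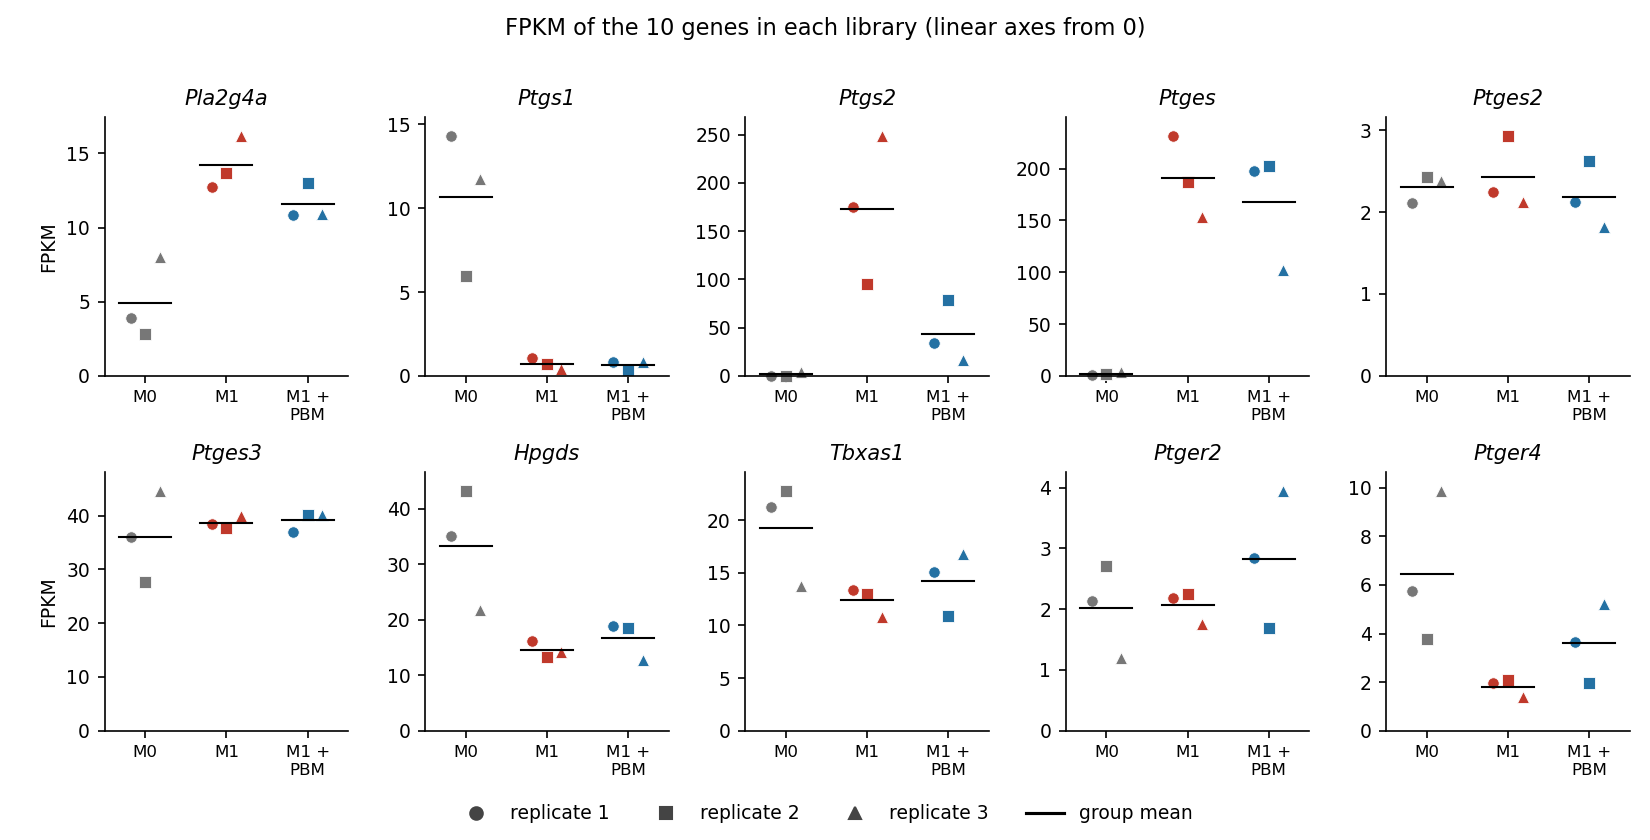
FPKM of each of the 10 genes in the 9 libraries, on linear axes that start at 0 and differ between panels. Symbols give the replicate and bars the group mean: Ptgs2 and Ptges are near 0 in M0 and high in M1, Ptgs1 is high in M0 only, and Ptgs2 is the only gene whose M1 and M1 + PBM libraries do not overlap.

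The first comparison asked what the induction with LPS and IFN-γ did to these genes. M0 was deposited in a table apart from that of M1 and M1 + PBM, and whether the tables were normalised together is not stated, so levels are set side by side with no test. A difference between the tables and the induction cannot be told apart. Of the 10 genes, 3 were higher in M1 than in M0 with no overlap and at least 2-fold between the group means (Pla2g4a, Ptgs2 and Ptges), against 9.42% of 13915 rows. Another 3 were lower in the same sense (Ptgs1, Hpgds and Ptger4), against 23% of rows. Without the fold minimum, 3 genes lay above M0 without overlap, against 15.6% of rows, and 4 lay below (the 3 named and Tbxas1), against 50.6%. As deposited, the median log2 difference of all rows (M1 minus M0) was -0.34, and a median-of-ratios scaling over the 9 libraries, which sets the typical gene equal between libraries, moved it to 0.056.

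The phospholipase gene Pla2g4a (ENSMUSG00000056220) had an FPKM of 3.93, 2.81 and 8.05 in M0 replicates 1 to 3 and of 12.8, 13.7 and 16.2 in the M1 replicates. Every M1 library was thus above every M0 library, and the M1 mean was 2.88-fold the M0 mean. M0 replicate 3 was the highest of the M0 libraries, and without it the ratio was 4.21. After scaling the ratio was 4.09.

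The cyclooxygenase genes moved in opposite directions. Ptgs1 (ENSMUSG00000047250) had an FPKM of 14.3, 5.97 and 11.8 in M0 and of 1.04, 0.722 and 0.390 in M1, and its M0 mean was 14.9-fold the M1 mean (10.5-fold after scaling and 14.1-fold without M0 replicate 3). Ptgs2 (ENSMUSG00000032487) had an FPKM of 0.197, 0.0729 and 4.26 in M0 and of 175, 94.9 and 248 in M1. Its lowest M1 library was far above its highest M0 library, and the ratio of the means was 114 (162 after scaling). This ratio rested on M0 replicate 3, the only M0 library with a Ptgs2 FPKM above 1, and without it the ratio was 1278. In rank among the 55154 rows with a symbol, Ptgs2 stood at 7462 to 21187 in the M0 libraries and at 146 to 399 in the M1 libraries. At the estimated depth, the lowest value of Ptgs2 stood for at most about 11.1 fragments and the lowest of Ptgs1 for at most about 35.0.

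Within each library, Ptgs2 made up 1.36, 1.21 and 26.6% of the summed FPKM of both cyclooxygenase genes in M0 replicates 1 to 3. In M1 its share was 99.2 to 99.8%, and in M1 + PBM it was 97.4 ± 2.30% (SD, n = 3), with replicate 2 within the M1 range at 99.5% and replicates 1 and 3 below it. M0 macrophages thus held nearly all cyclooxygenase transcript as Ptgs1 and M1 macrophages as Ptgs2, with M0 replicate 3 between them. These shares come from ratios within a library and do not move with its scaling.

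Among the terminal synthase genes, Ptges (ENSMUSG00000050737), the inducible PGE synthase that works together with COX-2, had an FPKM of 1.15, 1.33 and 3.98 in M0 and of 231, 187 and 154 in M1. The groups were far apart, and the ratio of the means was 88.6 (124 after scaling, 154 without M0 replicate 3). A pseudogene on the same strand, Gm13400, shares part of the span of Ptges, and its row had an FPKM of 0.990 to 14.7. The other PGE synthase genes overlapped between M0 and M1 as deposited. Ptges2 (ENSMUSG00000026820) had an FPKM of 2.12 to 2.43 in M0 and of 2.12 to 2.92 in M1, and Ptges3 (ENSMUSG00000071072), which also encodes the HSP90 co-chaperone p23, had 27.7 to 44.5 and 37.6 to 39.9. After scaling both lay above M0 without overlap in M1, with ratios of 1.48 and 1.52, so that their order depended on the scaling. Ptges3 also shares sequence with the pseudogene Ptges3-ps, whose own row had an FPKM of 18.8 to 27.7, and how the counting divided fragments between them is not given in the sources used here.

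Hpgds (ENSMUSG00000029919) had an FPKM of 35.1, 43.1 and 21.8 in M0 and of 16.1, 13.2 and 14.2 in M1. All M1 libraries were below all M0 libraries as deposited and the ratio of M0 to M1 was 2.30, but after scaling the groups overlapped with a ratio of 1.61. The deposited ratio was 2.70 without M0 replicate 3, the lowest of the M0 libraries. Tbxas1 (ENSMUSG00000029925) had 21.3, 22.7 and 13.7 in M0 and 13.4, 13.0 and 10.8 in M1. Its ratio of M0 to M1 was 1.55 without overlap as deposited and 1.09 with overlap after scaling. As deposited but without M0 replicate 3 it was 1.78. In the wider set of overlapping genes, a pseudogene on the other strand within Hpgds (Gm17147) had an FPKM of 14.1 to 45.6. Tbxas1 shares part of its span with Hipk2, Gm42962 and 1700025N23Rik on the other strand, and with the small RNA gene Gm23010 on its own strand. The libraries were strand-specific, but whether the counting used the strand is not stated.

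The share of each product line followed from these levels. Of the summed FPKM of Ptges, Hpgds and Tbxas1, Hpgds made up 55.2 to 64.2% and Tbxas1 33.9 to 37.0% in the M0 libraries, and Ptges made up 1.99, 1.97 and 10.1%. In M1 Ptges made up 86.0 to 88.7%, Hpgds 6.19 to 7.93% and Tbxas1 5.12 to 6.12%. Ptges was thus the lowest of the 3 genes in every M0 library and the highest in every M1 library, with Hpgds above Tbxas1 in both groups. In M1 + PBM the Ptges share was 85.4, 87.3 and 77.5%, so replicates 1 and 3 were below and replicate 2 was within the M1 range.

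**Figure D2:**
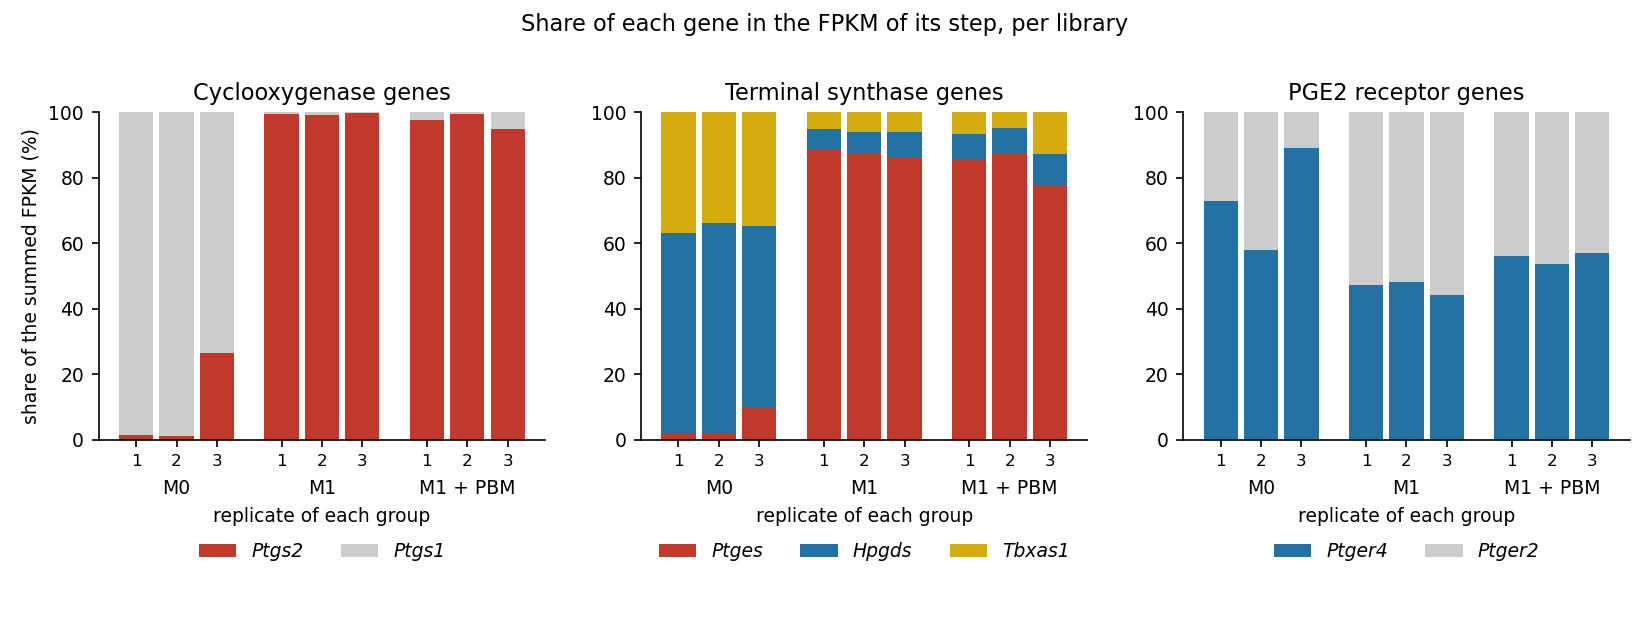
Share (%) of each gene in the summed FPKM of its step in each of the 9 libraries: the cyclooxygenase genes, 3 terminal synthase genes and the PGE2 receptor genes. Ptgs2 and Ptges hold most of their step in every M1 and M1 + PBM library, and the Ptger4 share is 44.2 to 48.2% in M1 and 53.7 to 57.0% in M1 + PBM.

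The receptors of PGE2 differed from each other. Ptger4 (ENSMUSG00000039942) had an FPKM of 5.74, 3.76 and 9.85 in M0 and of 1.96, 2.09 and 1.39 in M1. Every M1 library was below every M0 library, and the M0 mean was 3.56-fold the M1 mean, 2.53-fold after scaling and 2.62-fold without M0 replicate 3, in which Ptger4 was highest. Ptger2 (ENSMUSG00000037759) had 2.13, 2.72 and 1.20 in M0 and 2.19, 2.25 and 1.75 in M1, and these overlapped. Ptger4 accordingly made up 72.9, 58.0 and 89.1% of the summed FPKM of both receptor genes in M0 and 47.3, 48.2 and 44.2% in M1. Ptger4 overlaps Ttc33 on the other strand, and the row of Ttc33 had an FPKM of 2.89 to 7.79.

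M1 + PBM macrophages were then set beside the same M0 libraries. Here 3 genes, Pla2g4a, Ptgs2 and Ptges, were at least 2-fold higher than in M0 without overlap, against 8.88% of rows, with ratios of 2.35, 28.4 and 77.9. Without M0 replicate 3 these ratios were 3.43, 318 and 135. Only Ptgs1 was at least 2-fold lower without overlap, by 15.8-fold, against 18.2% of rows. Hpgds also lay below M0 without overlap, with a ratio of 1.99, so that without the fold minimum 3 genes were higher, against 15.9% of rows, and 2 lower, against 46.2%. After scaling Hpgds overlapped M0 with a ratio of 1.49, and Ptges3 lay above M0 without overlap with a ratio of 1.44. The counts were then 4 higher and 1 lower, and no share of all rows was computed after scaling. Ptger4, at 3.65, 1.96 and 5.23, overlapped M0.

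**Figure D3:**
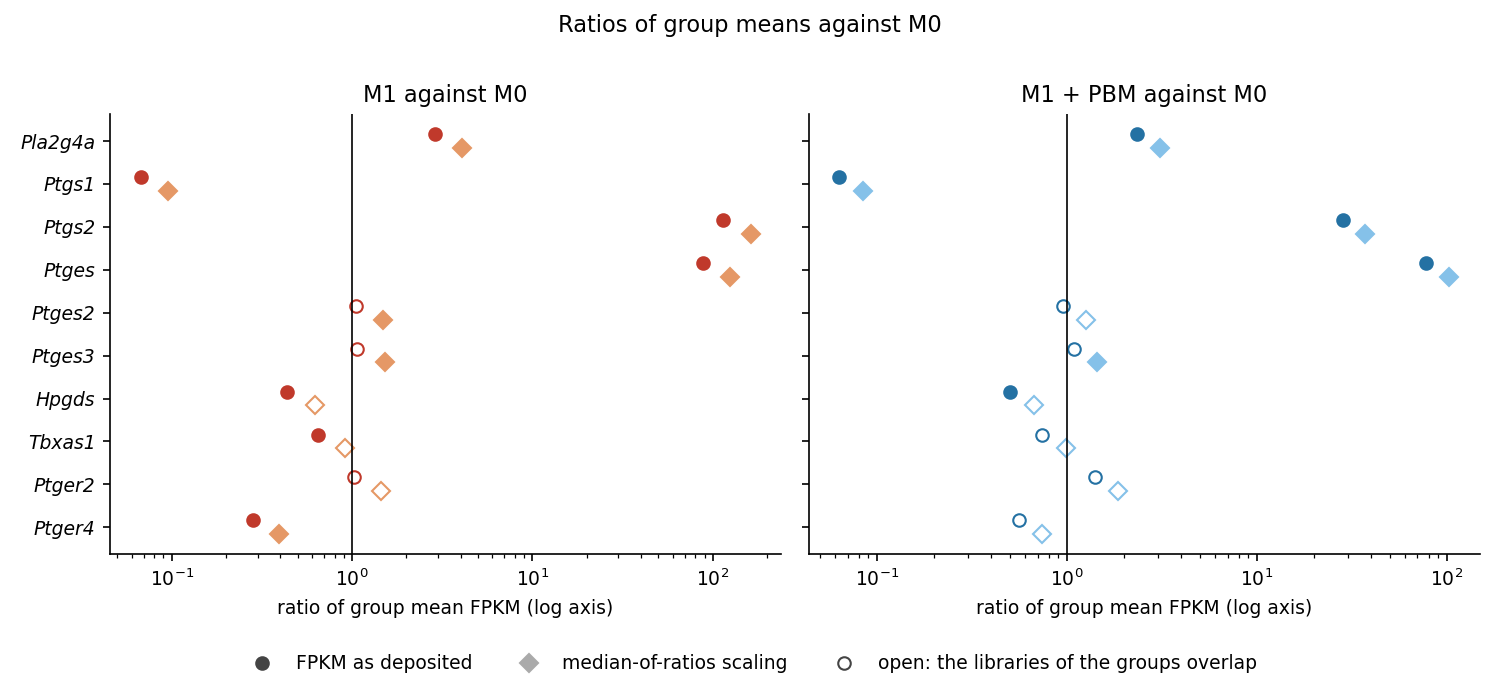
Ratio of the group mean FPKM to that of M0 (log axis) for the 10 genes, as deposited (circles) and after median-of-ratios scaling (diamonds), for M1 and M1 + PBM. Open symbols mark groups whose libraries overlap: Ptgs2, Ptges, Pla2g4a and Ptgs1 keep their side under both scalings, whereas Ptges2, Ptges3, Hpgds and Tbxas1 change between overlap and no overlap in M1.

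The second comparison asked what PBM changed in M1 macrophages, and it could be tested because both groups stood in 1 table. Ptgs2 fell by the unadjusted thresholds of the study, and no other member passed them. Of the 9 genes above the minimum of 1 FPKM in at least 3 of the 6 libraries, 1 passed the thresholds (p at or below 0.05 before adjustment, and a log2 change of 1 or more in size) toward lower values, against 0.237% of 12238 rows. None of the 9 passed them toward higher values, against 0.0245%. At an unadjusted p of at most 0.05 alone the count was also 1, against 4.44% of rows, and no gene of the set had an adjusted p under 0.05 (limma, Benjamini-Hochberg over all rows), which 0.00817% of rows did. The study had picked Ptgs2 from these same libraries, so its place in the set is not independent evidence of its direction. Apart from these libraries, the paper also reported less COX-2 with PBM by RT-PCR (RNA) and by ELISA (protein in conditioned medium).

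Ptgs2 had an FPKM of 175, 94.9 and 248 in M1 replicates 1 to 3 and of 33.7, 79.1 and 15.9 in the M1 + PBM replicates. All M1 + PBM libraries were below all M1 libraries, and the nearest were M1 replicate 2 and M1 + PBM replicate 2. It was the 1 gene of the 10 whose groups did not overlap, where 2.52% of all rows were lower and 8.51% higher without overlap. The M1 mean was 4.02-fold the M1 + PBM mean, and the log2 fold change, taken on log2(FPKM + 1), was -2.16 (standard error 0.61) and its 95% interval ran from -3.62 to -0.70. The unadjusted p was 0.010 and the adjusted p 0.90 in limma. By replicate number the log2 difference was -2.34, -0.26 and -3.88, so the size of the fall was set by replicates 1 and 3. The two-sided exact permutation test gave 0.1, the smallest p that 3 against 3 libraries allow. With the replicate number as a block, the unadjusted p was 0.027. Leaving out each library in turn gave log2 fold changes from -2.73 to -1.61, all past the thresholds, and without M1 replicate 2, the library with liver transcripts, the unadjusted p was 0.009 (limma).

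Other enzymes of the path did not follow Ptgs2 past the test. Pla2g4a had an FPKM of 10.8, 13.0 and 10.9 in M1 + PBM, against 12.8, 13.7 and 16.2 in M1. It was lower in each replicate number, yet M1 + PBM replicate 2 overlapped M1, and the log2 fold change was -0.27 with a 95% interval from -0.57 to 0.031 (unadjusted p 0.071, adjusted p 0.90, limma). Ptges had 198, 203 and 102 in M1 + PBM, against 231, 187 and 154 in M1. Replicate 3 was the lowest library in both groups, the groups overlapped, and the log2 fold change was -0.23 with an interval from -0.95 to 0.49. Without M1 + PBM replicate 3 the value was 0.092.

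Ptgs1 was below the minimum in most libraries and was not tested in the main set. It had an FPKM of 0.805, 0.371 and 0.848 in M1 + PBM, beside 1.04, 0.722 and 0.390 in M1, and these overlapped. With no minimum its log2 fold change was -0.032, with an interval from -0.51 to 0.45.

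Ptges2, Ptges3, Hpgds and Tbxas1 overlapped between M1 and M1 + PBM. Ptges3 had 36.9, 40.2 and 40.2 in M1 + PBM and had the smallest coefficients of variation of the 10 genes in both groups, 3.04% in M1 and 4.77% in M1 + PBM. Its log2 fold change was 0.015 with an interval from -0.20 to 0.23, and its sign turned under other settings. That of Ptges2 was -0.11 (interval from -0.44 to 0.23), and its values in M1 + PBM were 2.12, 2.62 and 1.82. Hpgds had 18.8, 18.6 and 12.8 in M1 + PBM and a log2 fold change of 0.18 (interval from -0.23 to 0.58). Tbxas1 had 15.1, 10.9 and 16.8 and a log2 fold change of 0.17 (interval from -0.25 to 0.59). Unadjusted p-values of these 4 genes were 0.33 to 0.87 (limma). For no member but Ptgs2 did the interval lie wholly below or above 0.

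The receptor genes had higher means with PBM, and neither passed the test. Ptger4 had an FPKM of 3.65, 1.96 and 5.23 in M1 + PBM, against 1.96, 2.09 and 1.39 in M1. Replicates 1 and 3 of M1 + PBM were above every M1 library and replicate 2 was within the M1 range. In M1 + PBM the summed FPKM of the 9 stromal markers had the same order as Ptger4, at 32.9, 8.89 and 41.1 in replicates 1 to 3. In M1 it was 20.6, 18.9 and 22.2, the reverse of the order of Ptger4. M0 replicate 3, where this sum was 287, had the highest Ptger4 but the lowest Ptger2 (1.20). All 9 stromal markers were above 0 in at least 1 library, and the part of these transcripts in the Ptger4 and Ptger2 values was not tested. The mean of Ptger4 was 1.99-fold that of M1, the log2 fold change was 0.66 with an interval from -0.00081 to 1.31, and the unadjusted p was 0.0502 (adjusted p 0.90, limma). Without M1 + PBM replicate 2 the log2 fold change was 0.94 (unadjusted p 0.0028, adjusted p 0.48, limma). Without M1 + PBM replicate 3 it was 0.41 (unadjusted p 0.13), the lowest value when a library was left out. With the block the unadjusted p was 0.071. Ptger2 had 2.84, 1.69 and 3.94 in M1 + PBM, against 2.19, 2.25 and 1.75 in M1, and a log2 fold change of 0.28 with an interval from -0.26 to 0.82. Without M1 + PBM replicate 2 it was 0.51 (unadjusted p 0.019, adjusted p 0.60, limma), and without M1 + PBM replicate 3 it was 0.074 (unadjusted p 0.71).

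**Figure D4:**
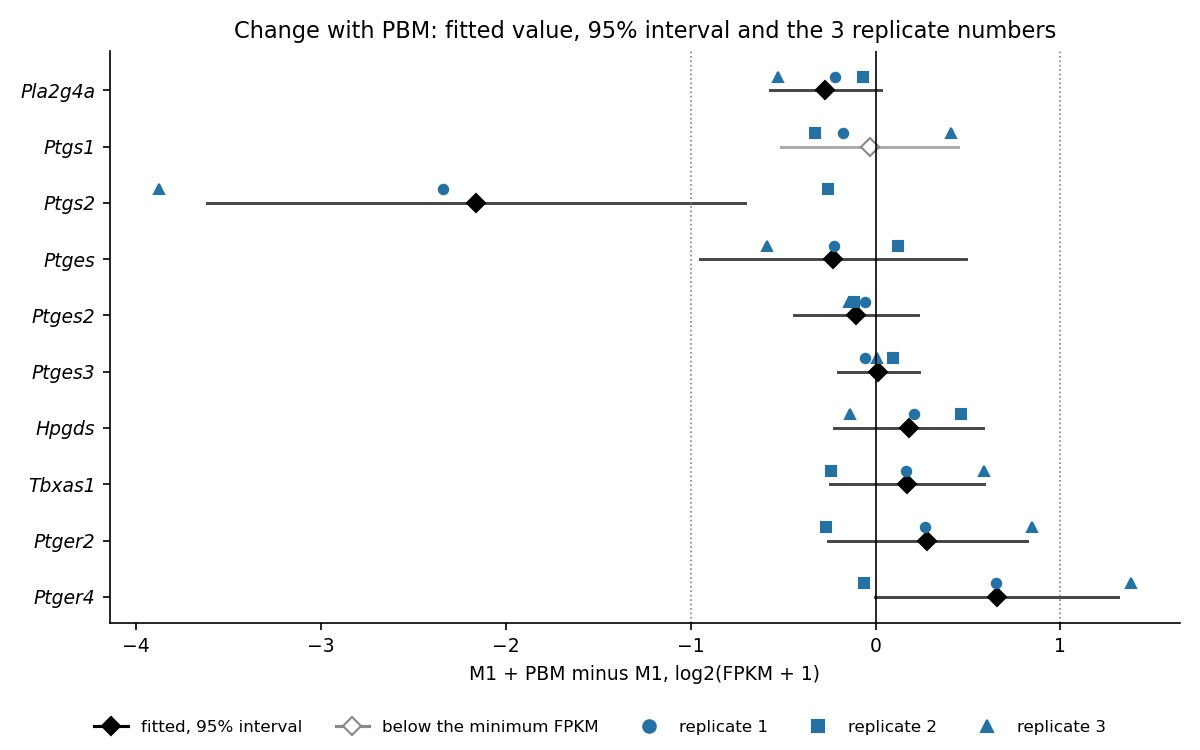
Difference of M1 + PBM minus M1 on the log2(FPKM + 1) scale for the 10 genes. Diamonds and lines give the fitted value with its 95% interval, the open diamond marks Ptgs1 (fitted with no minimum), small symbols give the replicate numbers, and dotted lines stand at a log2 change of 1 in each direction: Ptgs2 lies at -2.16, and its replicates range from -3.88 to -0.26.

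Ratios between members within a library were taken on FPKM + 1. They lessen the part of the scaling of the library, but do not remove it for genes of low FPKM such as Ptgs1. The log2 ratio of Ptgs2 to Ptges was -0.40, -0.97 and 0.69 in M1 and -2.52, -1.35 and -2.61 in M1 + PBM. The groups did not overlap and differed by -1.93 (two-sided exact permutation p = 0.1, the smallest possible). By replicate number the differences were -2.12, -0.38 and -3.29, so the COX-2 transcript was lower relative to that of Ptges in each of them. The log2 ratio of Ptgs2 to Ptgs1 differed by -2.13 (exact permutation p = 0.2). It was 6.43, 5.80 and 7.49 in M1 and 4.27, 5.87 and 3.20 in M1 + PBM, where replicate 2 lay within the M1 range. With a pseudocount of 0.1 in place of 1 the difference was again -2.13, and the exact permutation p was 0.3. The log2 ratio of Ptger4 to Ptger2 was -0.11, -0.070 and -0.20 in M1 and 0.28, 0.14 and 0.33 in M1 + PBM. It was higher with PBM in every library, by 0.38 (exact permutation p = 0.1). Adjusted over the 3 ratios by Benjamini-Hochberg, the p-values were 0.15, 0.2 and 0.15 in the order Ptgs2 to Ptges, Ptgs2 to Ptgs1 and Ptger4 to Ptger2. These permutations did not pair the libraries. A sign-flip test on the differences by replicate number gave an unadjusted p of 0.25, 0.5 and 0.25 in the same order.

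Across the 6 libraries of M1 and M1 + PBM, some members ran with Ptgs2 and some against it. Pearson's r of log2(FPKM + 1) with Ptgs2 was 0.878 for Pla2g4a and 0.558 for Ptges, -0.965 for Ptger4, -0.861 for Ptger2 and -0.803 for Tbxas1, and 0.038 for both Ptges3 and Hpgds. These are descriptions over 6 points that hold both groups and share their libraries and scaling. M1 replicate 3 had the highest Ptgs2 and Pla2g4a and the lowest Ptger4, and M1 + PBM replicate 3 had the lowest Ptgs2 and the highest Ptger4. Both libraries numbered 2 lay close together, in the middle of the 6 for Ptgs2 and toward the low end for Ptger4.

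**Figure D5:**
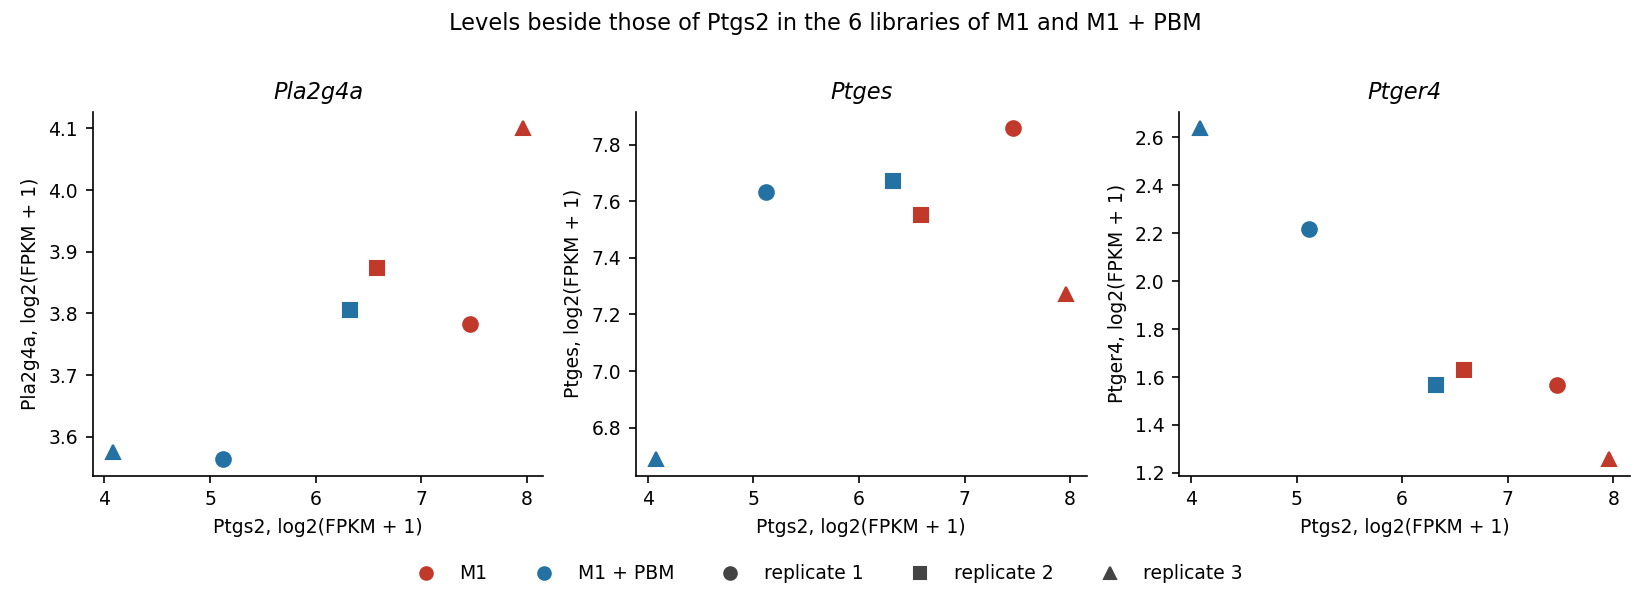
Level of Pla2g4a, Ptges and Ptger4 (log2(FPKM + 1), vertical axes that do not start at 0) beside that of Ptgs2 in the 6 libraries of M1 and M1 + PBM. Ptger4 is lowest where Ptgs2 is highest (r = -0.965), Pla2g4a runs with Ptgs2 (r = 0.878), and both libraries of replicate 2 lie close to each other.

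The 5 rows most like Ptgs2 over these 6 libraries, of 12237 others, were Hcar2 (r = 0.997), Rcl1 (0.990), Gm47118 (0.988), Il6 (0.985) and Hook2 (0.985). Hcar2, the receptor for niacin and β-hydroxybutyrate, had an FPKM of 19.6, 11.3 and 24.8 in M1 and of 5.31, 11.5 and 3.30 in M1 + PBM. Il6, the gene of the cytokine IL-6, had 21.7, 14.9 and 25.3 in M1 and 3.40, 7.30 and 1.20 in M1 + PBM. In both genes, as in Ptgs2, M1 replicate 3 was the highest and M1 + PBM replicate 3 the lowest library. The long non-coding RNA Ptgs2os2 (ENSMUSG00000097754), whose name marks it as an opposite-strand neighbour of Ptgs2 and which was looked at after its values were seen, had an r of 0.910. Its FPKM was 0.233, 0.0386 and 0.328 in M0, 2.27, 1.72 and 3.88 in M1 and 0.879, 1.51 and 0.990 in M1 + PBM, so that M1 lay above both other groups without overlap. With PBM it changed by -0.74 on the log2 scale (standard error 0.23, unadjusted p 0.018, adjusted p 0.90, limma), under the fold threshold. No gene annotated in GENCODE M21 overlapped the span of Ptgs2 on either strand. Whether transcripts of Ptgs2 and of Ptgs2os2 depend on each other was not tested.

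The wider pathway was read from lists of genes around these 10. For arachidonate release and remodelling, 13 of 21 genes were above the minimum and none passed the thresholds in either direction with PBM, and their median log2 fold change was 0.058, as was that of all tested rows. The most abundant over the M1 and M1 + PBM libraries were Pla2g7, the platelet-activating factor acetylhydrolase, Anxa1, annexin A1, and Lpcat2, a lysophospholipid acyltransferase. Pla2g7 had a mean FPKM of 101 ± 18.9 in M1 and of 89.4 ± 7.12 in M1 + PBM. Of 8 other prostanoid synthase genes 5 were tested, and none passed (median 0.15). The prostacyclin synthase gene Ptgis and the other PGD2 synthase gene Ptgds had mean FPKM of at most 0.029 in any group, and both are named after their values were seen. Of 9 genes of prostaglandin transport and inactivation 7 were tested and none passed (median -0.16). Slco3a1, a prostaglandin transporter, had an FPKM of 0.552, 0.412 and 3.57 in M0, 28.4 to 47.0 in M1 and 26.8 to 33.1 in M1 + PBM. Hpgd, the dehydrogenase that inactivates PGE2, also named after its values were seen, had 6.15, 1.97 and 8.93 in M0 and at most 0.224 in any M1 or M1 + PBM library.

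Of the 8 other prostanoid receptor genes only Ptgir, the prostacyclin receptor, was above the minimum. It had an FPKM of 8.90, 5.27 and 5.96 in M1 and of 3.59, 4.04 and 4.94 in M1 + PBM, all below the M1 libraries, and changed by -0.55 on the log2 scale (standard error 0.20). Its unadjusted p of 0.028 (adjusted p 0.90, limma) met the p threshold and its size did not meet that of the fold. Pparg, the nuclear receptor for which some prostaglandin derivatives are ligands, had 16.9, 21.2 and 9.12 in M0 and 0.537 to 1.28 in all libraries given LPS and IFN-γ. Of 15 leukotriene and lipoxygenase genes 6 were tested and none passed (median 0.13). Alox5ap, the 5-lipoxygenase activating protein, had a mean FPKM of 114 ± 21.8 in M0, 18.7 ± 3.49 in M1 and 27.5 ± 13.4 in M1 + PBM.

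Downstream of EP2 and EP4, 17 of 23 genes of cAMP signalling were tested. None passed the thresholds, 13 were higher and 4 lower in M1 + PBM, and the median was 0.16, against 0.058 for all tested rows. No share of all rows by direction alone is given beside these counts or the next. Adcy7, an adenylyl cyclase, had a mean FPKM of 27.9 ± 2.37 in M1 and of 36.1 ± 8.94 in M1 + PBM. Of 20 known cAMP and CREB target genes 12 were tested, 9 were lower and 3 higher in M1 + PBM, and the median was -0.28. The only one past the thresholds without the block was Fosl2, the AP-1 subunit Fra-2, which fell. Its FPKM was 10.9, 5.70 and 11.7 in M1 and 3.63, 3.34 and 4.81 in M1 + PBM, and the groups did not overlap. Its log2 fold change of -1.04 had a standard error of 0.26 (unadjusted p 0.0065, adjusted p 0.90, limma). At an unadjusted p of at most 0.05 alone (limma), 2 of the 12 were lower and 1 higher, against 1.45 and 2.99% of rows. The higher one was Rgs2, named after its values were seen. It had 1.20, 1.61 and 1.09 in M1 and 2.07, 1.76 and 3.58 in M1 + PBM (unadjusted p 0.032, adjusted p 0.90, limma). Thbs1, thrombospondin-1, had 75.1, 42.2 and 191 in M1 and 35.5, 21.7 and 97.1 in M1 + PBM. The groups overlapped and the value of -0.99 had an unadjusted p of 0.21 (limma, adjusted p 0.90). Each M1 + PBM library was below the M1 library of the same number. With the block the unadjusted p was 6.4e-05, but the adjusted p over all rows was 0.36 (limma). The block also brought Il10, the gene of the anti-inflammatory cytokine IL-10, past both thresholds toward lower values. Il10, named after its values were seen, had 15.5, 5.36 and 38.2 in M1 and 7.45, 3.67 and 7.73 in M1 + PBM, and its log2 fold change of -1.19 had an unadjusted p of 0.11 without the block and 0.018 with it (limma, adjusted p 0.90 and 0.58).

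Between M0 and M1 the same lists were counted with no test. Of genes at the minimum over the 9 libraries, 2 of 14 arachidonate genes were at least 2-fold higher without overlap and 6 lower, 1 of 8 transport and inactivation genes was higher and 3 lower, and 2 of 7 leukotriene genes were higher and 4 lower. After scaling these became 3 higher and 3 lower, 2 and 1, and 2 and 3. For cAMP signalling the counts were 1 higher and 8 lower of 19, and 2 and 4 after scaling. Of 12 cAMP and CREB target genes 4 were higher and 4 lower, and 4 and 3 after scaling. None of 5 other synthase genes or 3 other receptor genes was higher under either scaling, and 3 and 2 were lower as deposited and 1 of each after scaling. The counts as deposited are to be read against 9.42% of all rows higher and 23% lower. No such share of all rows was computed after scaling, so the scaled counts have no background.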

How the data were processed

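RNA-seq libraries of M0, M1 and M1 + PBM macrophages (3 each) were analysed from 2 deposited tables, 1 for M0 and 1 for the other groups. The authors deposited FPKM values, and the paper names Cufflinks methods for them. The submitters' processing notes name Bowtie 0.12.2 and the build mm9 without a role, and other steps are not given in the sources used here. Of the 55655 rows, 55154 were named through GENCODE M21, 181 Ensembl identifiers had no symbol and 320 rows carried MSTRG names. As the builds differ, no gene coordinates are given, and promoters and their positions come from RefSeq on GRCm38.p6.

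The effect of PBM on M1 libraries was fitted in limma 3.58.1 under R 4.3.3 (a linear model with a trend in eBayes, two-sided) on log2(FPKM + 1) for the 12238 rows that reached an FPKM of 1 in 3 or more of the 6 libraries. The pseudocount of 1 understates the change of low genes. A row was called by the thresholds of the study, p at or below 0.05 before adjustment and a log2 change of 1 or more in size, and p-values were adjusted by Benjamini-Hochberg over all tested rows. Single ratios were tested by exact permutation of the libraries. M0 entered no test, and 13915 rows that reached an FPKM of 1 in 3 or more of the 9 libraries were its background. FPKM are no counts, so no count model was used, and the fit was tested on simulated data. Libraries with the same replicate number deviated together (r = 0.157, 0.469 and 0.462 against -0.491 to 0.0328 for other pairs), although no label says that the numbers mark a shared batch. The main fit and the exact permutation tests left the libraries unpaired. The numbers paired them only in the fit with the replicate block and in the sign-flip tests of the ratios.

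All 10 members are named. From each list the genes past the thresholds and up to 3 of the highest FPKM could be named, and from the marker lists the highest gene and those at 0. The members and lists were chosen with earlier results of these data known. Alternatives were the pseudocount, the minimum, the scaling, the trend, the replicate block and leaving out each library. Python 3.11.15 with numpy 2.4.6, pandas 2.3.3 and matplotlib 3.10.9 was used for the rest.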

Additional observations from a re-analysis of the deposited data

How the results depend on the processing

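Ptgs2 stayed past the thresholds toward lower values in all alternatives run, and no other member passed them in any. The number of all rows called lower was 29, and 52 with a pseudocount of 0.1. The number called higher was 3, and 23 with a pseudocount of 0.1, 1 with median-of-ratios scaling and 5 with the replicate block. Leaving out each library in turn gave 22 to 60 rows lower and 4 to 39 higher, with the highest counts without M1 replicate 2 (lower) and without M1 + PBM replicate 2 (higher). With the replicate block, which pairs the libraries by number, the log2 fold change of Ptgs2 was again -2.16 (unadjusted p 0.027), and the block changed no call of a member. Leaving out each library gave -0.40 to 0.092 for Ptges, which turned without M1 + PBM replicate 3, and -0.0045 to 0.055 for Ptges3, which turned without M1 replicate 2, M1 + PBM replicate 2 or M1 + PBM replicate 3 (-0.0036, -0.0045 and -0.0040) and with median-of-ratios scaling (-0.063). Ptger4 had an unadjusted p of 0.049 with a pseudocount of 0.1. The number of members at least 2-fold lower in M1 + PBM than in M0 was 1, and 1 to 2 when a library was left out. The median log2 fold change of the other prostanoid synthases was 0.15, and 0.11 to 0.30 when a library was left out. The causes were not tested. With 3 libraries a group the smallest exact p is 0.1, and depth is only an estimate, so a change of low members such as Ptgs1 may not be detectable.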
